A study of Drosophila melanogaster with 2 samples.

Results

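The glycolytic enzyme genes described here are 10 of the 13945 protein-coding genes on the main chromosome arms of Drosophila melanogaster: Hex-A, Pfk, Ald1, Tpi, Gapdh1, Gapdh2, Pgk, Eno, PyK and Ldh. They were found by symbol in the Ensembl annotation of the Release 6 genome (dm6), and every peak with its summit in one of them or within 1 kb was collected. The set was chosen by pathway and by peak signal together, after the peaks had been seen: the signal of Gapdh2 and Hex-A in the IDR list defined below had drawn attention to it. All values below are therefore descriptions, and none was tested. The peaks come from chromatin immunoprecipitation followed by sequencing (ChIP-seq) of ovaries from adult females of unknown age, from a transgenic line that stably expresses CG17801, a zinc finger protein, with GFP (labelled eGFP) at its C-terminus. An anti-GFP antibody was used, and the single group holds 2 samples, which the labels call biological replicates 1 and 3. Control libraries were not analysed here, and peaks that another GFP fusion protein might also give in this tissue cannot be told apart from those of CG17801. The transgene was placed in the genome by site-specific recombination, and the labels do not say what drives it. The ovary mixes germline and somatic cells, and peak lists hold no marker levels by which the tissue could be checked.

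Glycolysis converts glucose to pyruvate in the cytosol. Its early enzymes (hexokinase, phosphofructokinase and aldolase) phosphorylate the sugar and split it into triose phosphates, and its later ones (from glyceraldehyde phosphate dehydrogenase to pyruvate kinase) recover ATP and NADH. Lactate dehydrogenase turns pyruvate into lactate and restores the NAD+ that glycolysis uses. In flies, transcription of many of these genes is raised by the nuclear receptor ERR during development and by Sima, the fly HIF alpha subunit, when oxygen is low.

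Most of the strongest summits of these genes lay in A+T-rich DNA, and the sequences shown here are the 101 bp around the summits that the results turn on, read 5′ to 3′ on the strand of the gene from the Release 6 genome (dm6). Capitals mark every unbroken run of 6 or more A and T bases. The windows are chrX:15867930-15868030 (plus strand) for Gapdh2, chrX:9585434-9585534 (plus) for Hex-A, chr2L:2748794-2748894 (minus) for the strongest peak of Pgk, chr3R:22367262-22367362 (plus) for PyK and chr3L:6262820-6262920 (minus) for Ldh. That of Eno, chr2L:1727851-1727949 (minus), was shortened to 99 bp because it reaches into a 5′ UTR. The second strongest peak of Pgk, at chr2L:2751992-2752092 (minus), is shown as a strong peak with few such runs. The weak peaks are represented by Tpi at chr3R:30134754-30134854 (minus) and by the intronic summit of Ald1 at chr3R:26260979-26261079 (minus), which is shown as the contrast with no run at all.
Gapdh2: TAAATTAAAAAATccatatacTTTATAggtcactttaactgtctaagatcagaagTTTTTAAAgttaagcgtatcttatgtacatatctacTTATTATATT
Hex-A: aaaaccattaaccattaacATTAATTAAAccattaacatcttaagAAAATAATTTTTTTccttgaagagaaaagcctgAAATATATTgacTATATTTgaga
Eno: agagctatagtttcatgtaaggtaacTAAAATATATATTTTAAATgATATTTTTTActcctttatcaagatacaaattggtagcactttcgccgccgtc
Pgk: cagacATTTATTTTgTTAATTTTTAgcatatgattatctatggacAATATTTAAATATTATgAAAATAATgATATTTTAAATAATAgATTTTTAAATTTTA
Pgk, second peak: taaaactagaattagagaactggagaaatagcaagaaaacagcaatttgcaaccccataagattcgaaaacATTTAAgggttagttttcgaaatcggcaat
PyK: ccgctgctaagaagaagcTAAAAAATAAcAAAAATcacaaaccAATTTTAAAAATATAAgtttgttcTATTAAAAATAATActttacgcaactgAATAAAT
Ldh: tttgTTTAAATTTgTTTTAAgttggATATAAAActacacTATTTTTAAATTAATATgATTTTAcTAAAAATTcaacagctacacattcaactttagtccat
Tpi: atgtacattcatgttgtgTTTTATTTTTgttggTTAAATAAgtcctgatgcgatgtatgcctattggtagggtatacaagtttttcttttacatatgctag
Ald1: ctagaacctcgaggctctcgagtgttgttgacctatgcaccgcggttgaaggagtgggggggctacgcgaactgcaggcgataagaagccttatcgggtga

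The 4 peak lists searched were the IDR list, the pooled list and the lists of replicates 1 and 3. The IDR list (irreproducible discovery rate, a filter on how well peaks agree between replicates) holds 6723 peaks, and these are the strongest 6723 of the 30000 in the pooled list. Each replicate list holds 30000 peaks. The signal is the authors' value for a peak on a scale the sources used here do not state. It ran from 117 to 4011 in the IDR list, from 12.7 to 1778 in replicate 1 and from 15.9 to 2292 in replicate 3, so it is compared only within a list, and rank 1 is the highest signal. Read totals are not in the files, so the depth is unknown.

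For 8 of the 10 genes the IDR list held a summit no more than 250 bp from a transcription start site (TSS) of the annotation, and Gapdh1 and Pfk were the exceptions. Over all protein-coding genes the same share was 30.4%. In the gene or within 1 kb of it, 9 of the 10 had an IDR summit, all but Gapdh1, against 43.9% of all protein-coding genes. The glycolytic genes are longer (median span 4504 bp against 2166 bp) and have more TSSs (median 2 against 1), which gives them more sequence in these windows. In the pooled list a summit within 250 bp of a TSS was found for 9 of the 10, all but Pfk, where the background was 55.4%. Given only to the gene with the nearest TSS, IDR summits within 250 bp were left to 6 of the 10, against 24.6%: the peak at PyK went to Polr3F and those at Pgk to Bacc. With the stronger part of the IDR list alone, its top 3361 peaks, 6 of the 10 had a summit within 250 bp (Gapdh2, Hex-A, Eno, PyK, Pgk and Ldh), against 17.1%.

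Altogether the 10 genes held 19 IDR summits, and 18 of these had a summit within 100 bp in both replicate lists. Over the whole IDR list, 6271 of the 6723 summits were matched in this way. The IDR list shares reads with both replicates, so the matching is no independent check. Of the 19 summits of the set, 10 lay within 250 bp of a TSS of the gene itself, and 7 had the TSS of another gene as their nearest. No share over all IDR summits stands beside these counts, so they describe position only. The IDR ranks of the strongest summits spread from 3 for Gapdh2 to 6105 for Tpi. Gapdh2, Hex-A, Eno, Pgk, PyK and Ldh followed each other in this order in the IDR list and in both replicates, with no overlap between neighbours in this order. Ald1, Pfk and Tpi had IDR ranks of 5845, 5884 and 6105. In the replicate lists the best summit anywhere in these genes or within 1 kb had rank 5728 and 4928 for Ald1, 5130 and 6298 for Pfk, 6751 and 6054 for Tpi, and 5382 and 8869 for Gapdh1. The order of these genes changed from one replicate to the other, with Pfk first in replicate 1 and Ald1 first in replicate 3. For all matched IDR summits the larger replicate rank was a median of 1.51 times the smaller.

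**Figure D1:**
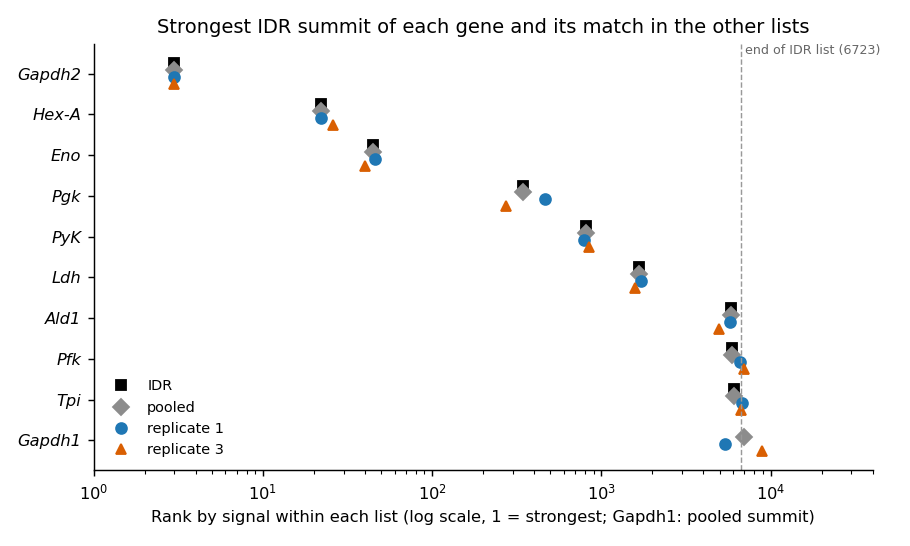
Rank by signal (log scale, 1 is strongest) of the strongest IDR summit of each glycolytic gene (for Gapdh1, of the pooled list) and of the summit matched to it within 100 bp in each other list; the dashed line is the end of the IDR list at 6723. Gapdh2, Hex-A, Eno, Pgk, PyK and Ldh step down without overlap, while Ald1, Pfk, Tpi and Gapdh1 crowd near the end of the list.

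Hexokinase, which phosphorylates glucose on its entry into the cell, is encoded by Hex-A (FBgn0001186, chrX:9585675-9589813, plus strand). Its main summit at position 9585484 was intergenic, 191 bp upstream of the first TSS and 406 bp upstream of the second. The signal there was 1790 in the IDR and pooled lists (rank 22), 807 in replicate 1 (rank 22) and 1000.2 in replicate 3 (rank 26). Both replicates thus placed it among the very strongest peaks, with summits at most 20 bp from that of the IDR list. A second IDR summit, at 9590153, lay 340 bp past the 3′ end of the gene in an exon of the non-coding gene lncRNA:CR45542. Its signal was 569 (rank 420), with rank 305 in replicate 1 and 602 in replicate 3. The nearest IDR summit beyond the 1 kb margin was a further peak of signal 720 (rank 250), 1750 bp from the gene.

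Phosphofructokinase, the committed step of the pathway, is encoded by Pfk (FBgn0003071, chr2R:10109740-10117457, plus strand). Its single IDR summit was 242 bp past the 3′ end of the gene and 5 bp from the TSS of the neighbour dmpd, in the 5′ UTR of that gene. It had a signal of 127 (rank 5884), with 56.7 in replicate 1 (rank 6568) and 66.0 in replicate 3 (rank 6946). No IDR summit lay near either TSS of Pfk itself. The pooled list held a summit at 267 bp into the gene from the second TSS, in the 5′ UTR, with a signal of 110 (rank 7281), which is below the lowest signal of the IDR list. In the single replicates, however, a summit in the 5′ UTR of Pfk exceeded the one at dmpd: 66.4 (rank 5130) at 278 bp from the TSS in replicate 1, and 70.8 (rank 6298) at 144 bp in replicate 3. These 2 summits were more than 100 bp apart and so did not count as matched. The one of replicate 1 was matched instead to a weaker summit of replicate 3, 75 bp away, with a signal of 33.3 (rank 15105).

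Aldolase, which splits fructose bisphosphate into triose phosphates, is encoded by Ald1 (FBgn0000064, chr3R:26254069-26261591, minus strand, 5 TSSs). One IDR summit was in the 5′ UTR, 50 bp downstream of a TSS, with a signal of 118 (rank 6599), 58.2 in replicate 1 (rank 6300) and 65.3 in replicate 3 (rank 7044). The other was in an intron 383 bp downstream of a TSS, in an exon of the antisense gene asRNA:CR44321. Its signal was 128 (rank 5845), 62.0 in replicate 1 (rank 5728) and 83.8 in replicate 3 (rank 4928). Both stood close to the lowest signal of the IDR list, 117. At 7523 bp Ald1 is among the longest of the set, yet no stronger peak lay within 1 kb of it, and the nearest beyond was 5749 bp away (signal 392, rank 836).

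Triose phosphate isomerase, which interconverts both triose phosphates, is encoded by Tpi (FBgn0086355, chr3R:30132981-30134599, minus strand). Its IDR summit was intergenic, 205 bp upstream of the first TSS. The signal was 124 in the IDR list (rank 6105), 55.5 in replicate 1 (rank 6751) and 68.2 in replicate 3 (rank 6645). A further summit of the pooled list, 47 bp downstream of the second TSS in the 5′ UTR, had a signal of 104 (rank 7819). In replicate 3 that one stood above the upstream summit (72.9 against 68.2) and in replicate 1 below it (35.6 against 55.5), so which of them is the stronger was not settled by the replicates.

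Glyceraldehyde phosphate dehydrogenase, which oxidizes the triose phosphate and yields NADH, has a gene on each of 2 chromosomes. Gapdh2 (FBgn0001092, chrX:15868145-15869661, plus strand) had the highest peak of all 10 genes. Its summit at 15867980 was intergenic, 165 bp upstream of the first TSS and 231 bp upstream of the second, and the peak was 549 bp wide where 404 bp is the commonest width. The signal was 3242 in the IDR and pooled lists, 1423 in replicate 1 and 1811 in replicate 3. It ranked 3 in each of the 4 lists, with the summit at the same base in both replicates. Gapdh2 stood at place 2 by signal among the 4245 genes that had a TSS summit in the IDR list. The next IDR summit was 1166 bp from the gene, outside the margin, with a signal of 129 (rank 5805).

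Gapdh1 (FBgn0001091, chr2R:7791901-7793380, minus strand) had no IDR summit in the gene or within 1 kb, and the nearest was 8856 bp away. In the pooled list its best summit lay in the 5′ UTR, 53 bp downstream of a TSS, with a signal of 114 (rank 6943), just below the lowest IDR signal of 117. The signal was 64.4 in replicate 1 (rank 5382, 45 bp downstream) and 54.5 in replicate 3 (rank 8869, 54 bp downstream). Both genes of the pair thus had a summit near a TSS in each replicate, upstream at Gapdh2 and downstream at Gapdh1, and the ranks did not come near each other in any list. The coding sequences of the pair were identical at 88.8% of 996 aligned bases. None of the 171 stretches of 31 bases within 100 bp of either summit was found anywhere else in the genome, so the peaks lie in sequence that can be told apart.

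Phosphoglycerate kinase, which makes ATP, is encoded by Pgk (FBgn0250906, chr2L:2746880-2753068, minus strand, 5 TSSs). It held 7 IDR summits, the most of the set, and 0.66% of all protein-coding genes had 7 or more in the gene or within 1 kb (Pgk was the only 1 of the 10). The strongest, at 2748844 in an intron, was 357 bp upstream of the nearest TSS of Pgk. Its signal was 612 (rank 343), 229 in replicate 1 (rank 461) and 398 in replicate 3 (rank 274). The next, also intronic, at 2752042, had a signal of 438 (rank 687) and nearly the same rank in both replicates, 686 and 706. It lay nearer to a TSS of the neighbour Bacc (403 bp) than to any TSS of Pgk (1026 bp). Summits at 2749043, 2749607 and 2750461 had ranks of 1968, 6075 and 4903 and lay in introns as well. The one at 2749043 lay in the same peak interval as the strongest summit, so these 2 summits were not separate regions. At the 5′ end of Pgk the gene Bacc starts on the opposite strand within it. The 2 summits there lay 145 bp downstream and 122 bp upstream of the first TSS of Pgk. Each was nearer to a TSS of Bacc (123 bp and 43 bp), though not to the same one. By position they cannot be given to either gene. They were also the least stable between replicates. The one at 2752923 had no summit within 100 bp in replicate 1 and rank 2491 in replicate 3, and the one at 2753190 had rank 961 in replicate 1 and 11599 in replicate 3, larger by 12.1 times where the 90th percentile of all IDR summits was 2.95. The TSS signal of Pgk thus rests on a region that the replicates resolved differently, while its intronic peak at rank 343 did not depend on it.

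Enolase, which forms phosphoenolpyruvate, is encoded by Eno (FBgn0000579, chr2L:1724768-1729636, minus strand, 3 TSSs). The main summit at 1727899 was in an intron, 182 bp upstream of the TSS furthest inside the gene. The signal was 1456 in the IDR and pooled lists (rank 45), 618 in replicate 1 (rank 46) and 828 in replicate 3 (rank 40). It came after Gapdh2 and Hex-A in every list, at place 36 of the 4245 genes. At the first TSS of Eno a weaker summit lay 174 bp upstream, with a signal of 206 (rank 2662), but only 77 bp from the TSS of CG31937. Another, of signal 161 (rank 4158), was 386 bp past the 3′ end, 6 bp from the TSS of Rim2, a mitochondrial carrier gene. By position, then, the strong peak of Eno was nearest to an alternative start inside the gene, and not to the outermost one.

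Pyruvate kinase, which makes the last ATP of the pathway, is encoded by PyK (FBgn0267385, chr3R:22367536-22372746, plus strand). Its IDR summit lay 224 bp upstream of the first TSS, inside an intron of Polr3F, which encodes a subunit of RNA polymerase III and starts in the opposite direction 61 bp from the summit. The signal was 397 (rank 812), 176 in replicate 1 (rank 786) and 232 in replicate 3 (rank 841). The position does not tell which of this divergent pair the peak belongs to.

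Lactate dehydrogenase is encoded by Ldh (FBgn0001258, chr3L:6259105-6262694, minus strand, 3 TSSs). Its single IDR summit was intergenic, 176 bp upstream of the outermost TSS. The signal was 268 (rank 1673), 118 in replicate 1 (rank 1724, 209 bp upstream) and 162 in replicate 3 (rank 1574, 129 bp upstream). The rank was steady between the replicates, and the summit stayed on the same side of the TSS in both. A stronger IDR peak, of signal 678 (rank 284), lay beyond the margin, 2190 bp from the gene.

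**Figure D2:**
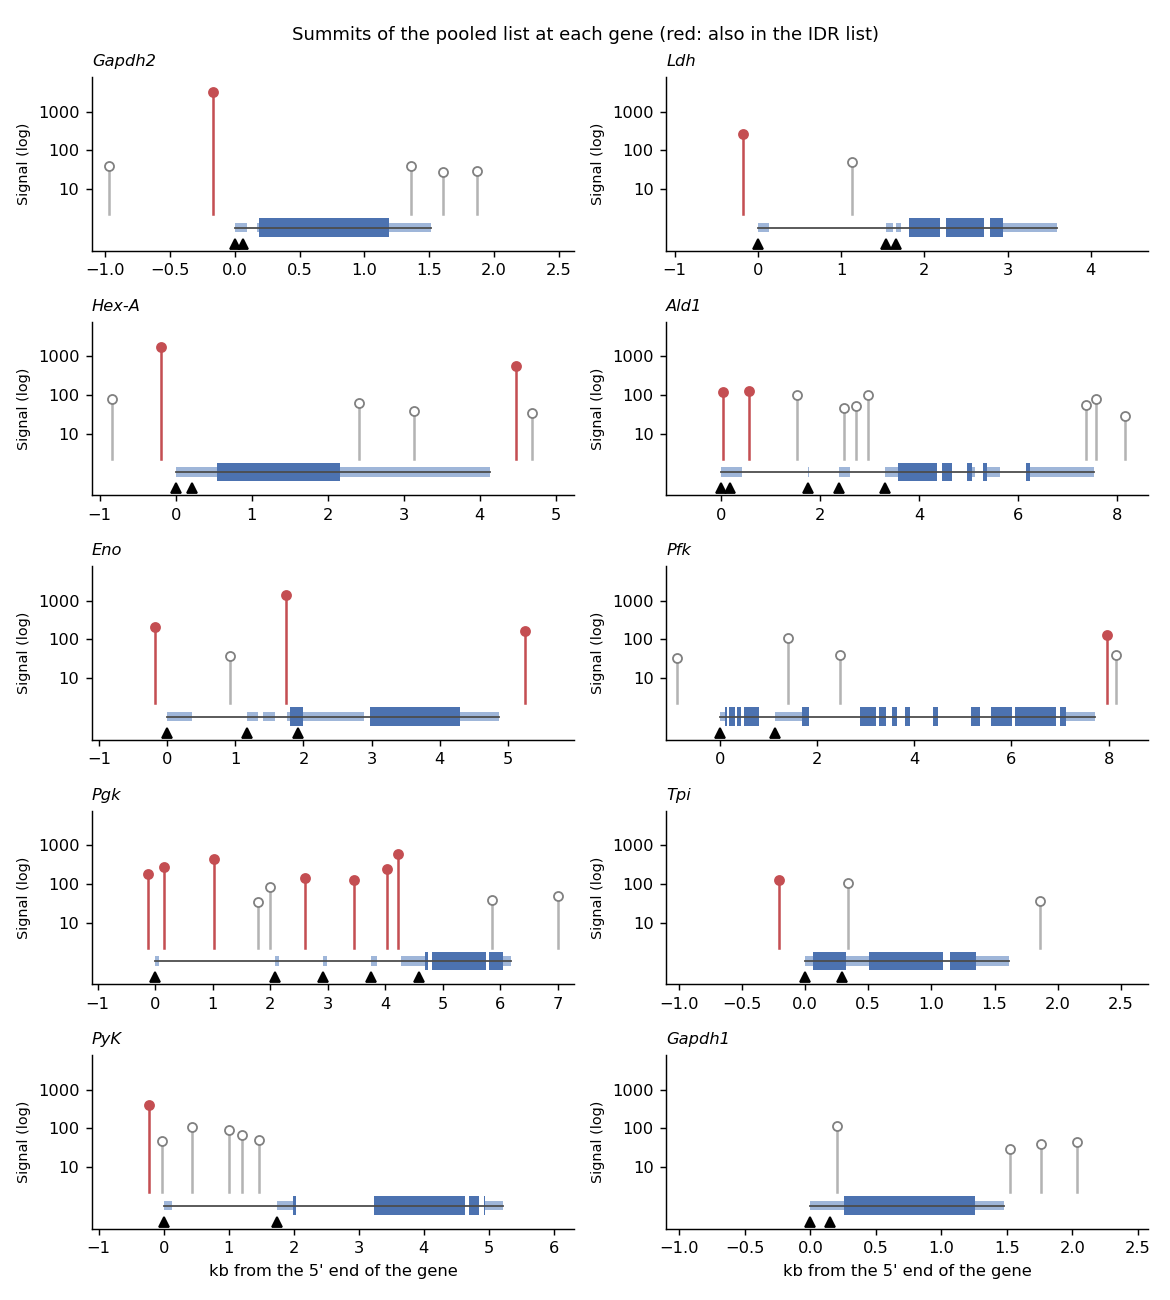
Summits of the pooled list at each of the 10 genes, drawn as stems whose height is the signal (log scale) against kb from the 5′ end of the gene; red stems are also in the IDR list, pale and dark boxes are exons and coding exons, and triangles are TSSs. The tallest stems of Gapdh2, Hex-A, PyK, Ldh and Tpi stand just upstream of the gene, that of Eno stands inside it before its innermost TSS, and Pgk carries 7 red stems.

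The main summits lay mostly at a similar distance upstream of the TSS. In 6 of the 8 genes with a TSS summit, the strongest one was 150 to 250 bp upstream: Gapdh2 at -165 bp, Ldh at -176, Eno at -182, Hex-A at -191, Tpi at -205 and PyK at -224. The exceptions were Ald1 at 50 bp and Pgk at 145 bp downstream. In all 4245 genes with such a summit, 18.3% had it 150 to 250 bp upstream, and the median position was -60 bp (quartiles -128 and 11) against -179 bp for the 8. Among the 349 genes whose TSS summit was one of the 500 strongest IDR peaks, which include Gapdh2, Hex-A and Eno, the share was 38.7%. Over all such genes position thus went with signal. Signal was used to choose the set, so position is not independent of the choice. PyK, Ldh and Tpi (ranks 812, 1673 and 6105) also lay in the interval without being among the 500 strongest. The limits of 150 and 250 bp were set after the positions had been seen, and a summit that far upstream can also be the promoter peak of a divergent neighbour, as at PyK. Each replicate list held an upstream summit at these 6 genes. In replicates 1 and 3 it lay at -165 and -165 bp for Gapdh2, -211 and -192 for Hex-A, and -175 and -181 for Eno. It lay at -224 and -227 for PyK, -209 and -129 for Ldh, and -184 and -247 for Tpi. In replicate 3 the summit of Ldh was thus outside the interval. At Tpi a summit 22 bp downstream of the second TSS was the stronger one in replicate 3 (72.9 against 68.2). In the IDR list a narrower window found almost none of the 10 genes. With a distance of at most 100 bp required, Ald1 was the 1 gene of 10 left, where 18.7% of all protein-coding genes passed. Within the gene alone, with no margin, 3 of the 10 had an IDR summit (Eno, Pgk and Ald1), against 19.5%.

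**Figure D3:**
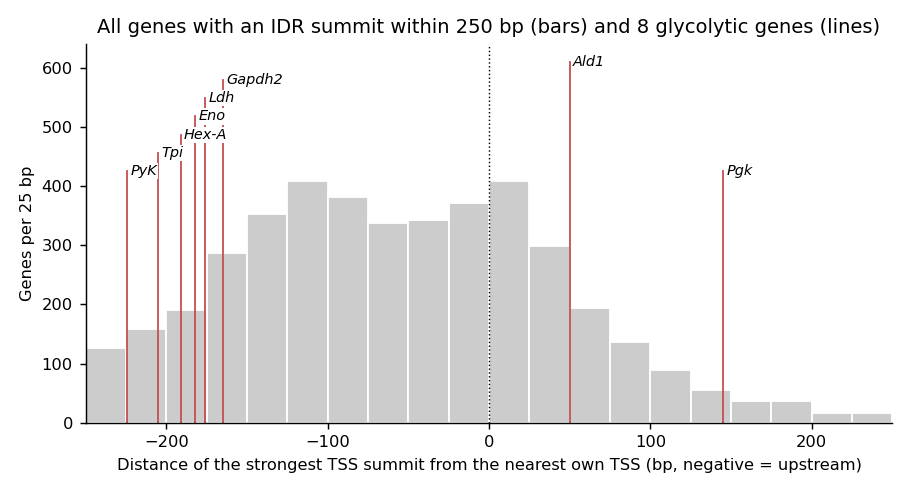
Distance in bp from the nearest TSS (negative is upstream) of the strongest TSS summit in the IDR list, as a histogram over 4245 genes in bins of 25 bp, with the 8 glycolytic genes as red lines. Gapdh2, Ldh, Eno, Hex-A, Tpi and PyK fall between -165 and -224 bp, on the far upstream side, and Ald1 and Pgk fall downstream.

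The strongest summit of most of the genes lay in A+T-rich sequence, though not every strong peak did. In windows of 101 bp on the summit, A+T made up 77.2% at Gapdh2, 77.2% at Hex-A, 70.3% at Eno, 86.1% at the strongest peak of Pgk, 76.2% at PyK and 79.2% at Ldh. Tpi had 68.3%, Pfk 53.5%, and Ald1 42.6% and 44.6%. Further peaks of the set did not follow their strength: the second peak of Pgk (rank 687) had 66.3%, below Tpi, and its peak at rank 1671 had 55.4%, beside 79.2% for Ldh at rank 1673. All IDR summits had a median of 62.4% (quartiles 54.5% and 70.3%), the 100 strongest 73.3% and the 500 weakest 60.4%, so the strongest peaks of the whole list had the higher median. The part of base composition in the signal was not tested. The flanks differed from gene to gene. At Hex-A the 101 bp windows centred 200 bp to either side averaged 46.0%, at Ldh 45.5%, at PyK 51.0% and at Eno 53.5%, against 61.4% at Gapdh2 and 69.3% at Pgk. In the sequences printed above, runs of 6 or more A and T bases cover 72 bases at the strongest peak of Pgk, 54 at Ldh, 53 at PyK, 40 at Hex-A, 37 at Gapdh2, 29 at Eno, 18 at Tpi, 6 at the second peak of Pgk and 0 at Ald1, where the median over all IDR windows was 20. The longest run was 19 bases, at Eno. Of the peaks not printed, the second of Hex-A (rank 420) had 20 bases in runs and that of Eno at rank 2662 had 19.

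**Figure D4:**
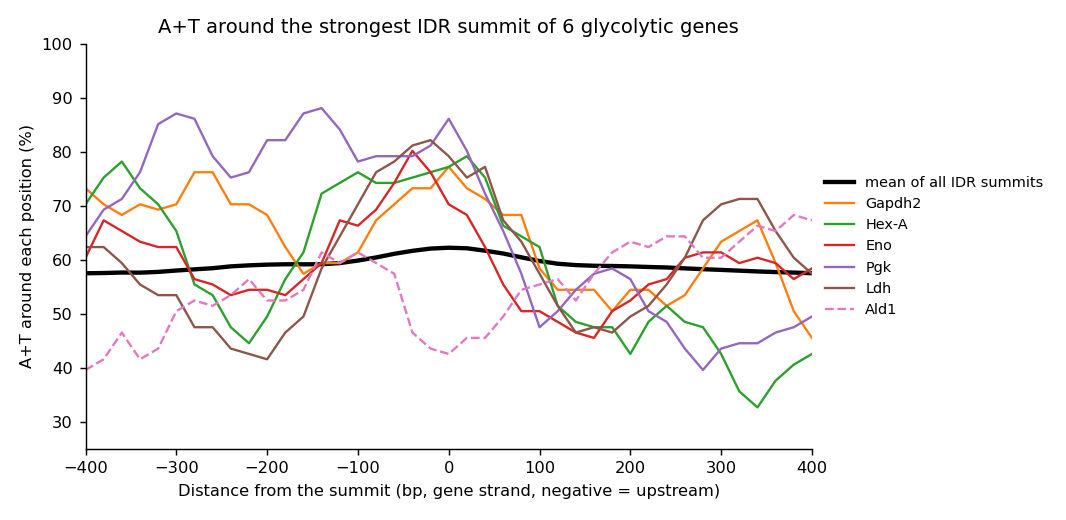
A+T percentage in sliding windows of 101 bp against the distance in bp from the strongest IDR summit, on the gene strand, for 6 glycolytic genes and as the mean of all IDR summits (black). Ldh rises to 79.2% at the summit between lower flanks. Hex-A has 77.2% at its summit and less 200 bp to either side, but 78.2% again 360 bp upstream. Pgk stays high upstream of its summit. Ald1 (dashed) dips to 42.6% at its summit and is lower only further upstream, with 39.6% at 400 bp.

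A panel of 9 motifs, drawn up after the peak positions were known, was searched on both strands within 50 bp of the 10 IDR summits that lay no more than 250 bp from a TSS of their own gene, which belong to 8 genes. Matches are counted per gene and the shares beside them per window, so a gene with several windows had more chances of a match. The letters TATCGATA (DRE) and its inner ATCGAT, GGTCACAC (M1BP), CACGTG (E-box), AAGGTCA (ERR half-site) and CAGGTAG (Zelda site) were found at none of the 8 genes. Their shares of all IDR windows were 3.05%, 7.82%, 2.14%, 1.20%, 0.580% and 0.476%, and of equal windows on all TSSs 4.47%, 11.1%, 4.67%, 1.82%, 0.566% and 0.485%. The letters of the TATA box, TATAAA, were found at 2 of the 8 genes, Gapdh2 and Ldh, against 17.9% of IDR and 15.3% of TSS windows. GAGAGA was found at Pgk (5.98% and 4.06%), and ACGTG, the hypoxia element that the E-box letters contain, at Ald1 (8.89% and 11.1%). Of all strings of 8 bases, those most in excess in IDR windows over their flanks were mainly made of A and T: 7 of the top 10 had no other base. These strings were searched in the windows of all 19 IDR summits of the set, which belong to 9 genes. AAAATAAA was in 8.50% of IDR windows and 5.86% of flanks, and in the windows of Eno, Pgk and Tpi. AAAAAATA was in 6.85% and 4.26%, and in the windows of Eno, Pgk and PyK. TATCGATA and ATCGATAG, which share the inner DRE letters, were also among the top 10. TATCGATA was in 3.06% of IDR windows and 1.01% of flanks and in no window of the set, and ATCGATAG was in 2.98% and 0.917% and in a window of Pgk that is not among those near its TSSs.

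No relative outside the 10 genes had an IDR summit within 250 bp of its TSS. Hex-C, a second hexokinase gene, had rank 9459 in replicate 1 (61 bp upstream) and 15189 in replicate 3 (174 bp upstream), against 22 and 26 for Hex-A. The testis hexokinase gene Hex-t1 had no summit within 250 bp of a TSS or 1 kb of the gene in any of the 4 lists, and Hex-t2 none within 250 bp. With the 1 kb margin, the best summit in replicates 1 and 3 had rank 9459 and 5941 for Hex-C and 5303 and 14622 for Hex-t2. For Gapdh1 the same ranks were 5382 and 8869. Ald2 had none in any list. CG9961, a relative of Pgk, had rank 15658 in replicate 1 and 22676 in replicate 3. The phosphoglycerate mutase genes, which serve the step between Pgk and Eno, showed a weak summit at Pglym78 (rank 10731 and 7855, 28 and 1 bp upstream) and none at Pglym87.

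Among the relatives of PyK and Ldh, CG7362, CG12229 and CG7069 had IDR summits within 1 kb at ranks 483, 497 and 3803 and none within 250 bp of a TSS. CG2964 had a weak summit at its start, with rank 15903 in replicate 1 (99 bp upstream) and no TSS summit in replicate 3, and CG11249 had no summit in any list. CG13334, related to Ldh, had its best IDR summit within 1 kb at rank 2706, and ranks of 6914 and 2048 in the replicates. Coding identity to the named enzyme gene ran from 58.7% for Hex-t1 to 78.2% for Pglym87 (against Pglym78), and stood above only in the Gapdh pair at 88.8%. The longest identical stretch in any pair was 38 bases.

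**Figure D5:**
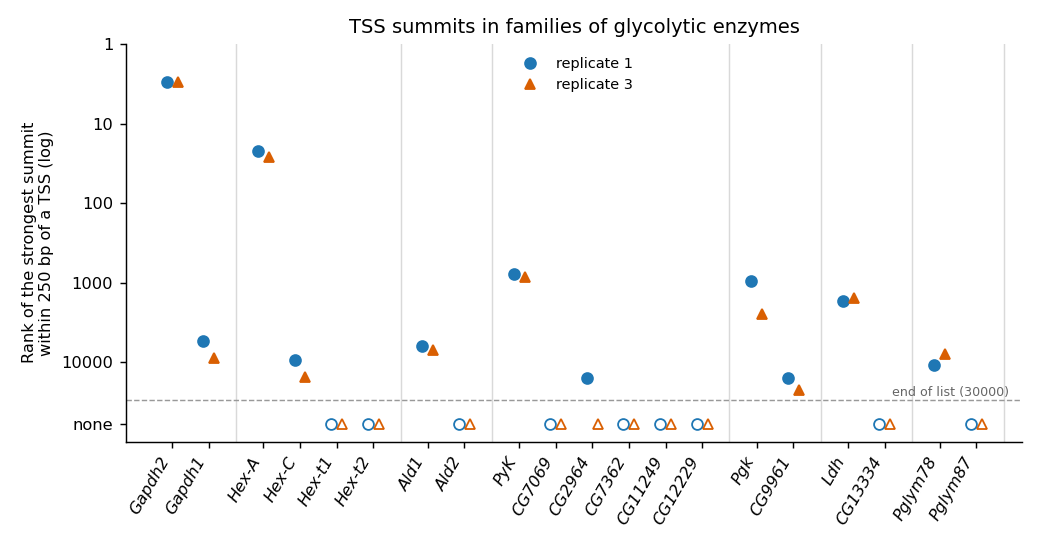
Rank (log scale, 1 at the top) of the strongest summit within 250 bp of a TSS in replicate 1 (circles) and replicate 3 (triangles) for each gene of 7 enzyme families; open symbols at the bottom mark no summit in a list of 30000. Gapdh2 at 3 and 3 and Hex-A at 22 and 26 stand far above Gapdh1 and Hex-C, and several relatives have no summit.

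A TSS summit of the IDR list was found at 26 of 66 further genes from 8 lists, or 39.4%, against the 30.4% of all protein-coding genes. The lists hold 5 to 16 genes each, so differences between them were not tested and their counts are to be read beside that same 30.4%. Of the other glycolytic steps and relatives 2 of 16 had one, and of gluconeogenesis 1 of 5. The phosphoglucomutase gene Pgm1, which links glycogen to glycolysis, had a signal of 423 (rank 727, -186 bp), and Pfrx, which makes the activator of phosphofructokinase, 250 (rank 1908, -5 bp). The gluconeogenic phosphatase gene fbp had 277 (rank 1555, -221 bp), with ranks of 3624 and 1306 in the replicates. These 3 were all weaker than Gapdh2, Hex-A and Eno.

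In the pentose phosphate pathway 5 of 8 genes had a TSS summit, led by CG8036, annotated as a transketolase, with 887 (rank 160, -234 bp; 177 and 148 in the replicates). Rpe, Pgd and Zw had 303, 257 and 236. Among genes of glycogen and trehalose 3 of 7 had one, led by the glycogen phosphorylase gene Glyp with 1079 (rank 91, -209 bp; 80 and 109 in the replicates), followed by Glys and AGBE with 295 and 293. Among sugar transporters 3 of 8 had one, led by nebu with 1014 (rank 109, -152 bp; 110 and 114), then Tret1-1 with 208 and sut1 with 169. Glyp, nebu and CG8036 thus stood between Eno and Pgk in rank, in both replicates. Their IDR summits lay 150 to 250 bp upstream, as did those of Gapdh2 and Hex-A. Of the 349 genes whose TSS summit was among the 500 strongest IDR peaks, 38.7% had it in that interval.

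Pyruvate entry into mitochondria had a TSS summit at 5 of 7 genes, none of them among the strongest: the phosphatase and kinase genes of pyruvate dehydrogenase, Pdp and Pdk, had 430 and 281, its subunit gene Pdhb 228 and the pyruvate carrier gene Mpc1 164. The glycerol phosphate and malate shuttles had 2 of 9, Gpdh1 with 310 and Got2 with 166, the latter at ranks 1631 and 10202 in the replicates. Of 6 genes for transcription factors of sugar metabolism 5 had one: ERR with 289, bigmax with 285, sima with 228 and tgo with 131 are the 4 highest. The summit of ERR was nearer to the TSS of Atg18a and that of bigmax nearer to the TSS of Hmu. The peaks say nothing of the direction or presence of an effect on transcription, which these files do not measure.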

How the data were processed

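Peak lists in narrowPeak format on dm6 were used as deposited for both samples. Per the text descriptions deposited with the samples, a replicate list rests on 1 alignment set against a control, the pooled list on both alignments together, and the IDR list on the other 3. The aligner is not given in the sources used here, nor is the peak caller. The signal of each peak is the authors' own, as deposited, with its scale not stated. The −log10 q-value, as deposited, had 1 constant value over the IDR list and was not used. Peak ends lay within the arm lengths of the Release 6 reference, and genes came from Ensembl release 115 (13945 protein-coding genes, 19607 TSSs). Ranks, signed summit distances, matching within 100 bp, A+T content and letter searches were computed with Python 3.11.15, numpy 2.4.6 and pandas 2.3.3, coding identity with Biopython 1.88 and figures with matplotlib 3.10.9. Distances and matching were tested on simulated data. Named genes are the 10 members, their relatives in each enzyme family, the gene with the nearest TSS to each member peak and up to 4 genes of highest TSS signal in each list of sugar metabolism. Of the listed genes, 3 were matched through synonyms and 1 was not matched. The members and lists were chosen with earlier results of these data known. Nothing was tested statistically. Alternatives were other windows, margins, matching distances, peak lists and single replicates.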

Additional observations from a re-analysis of the deposited data

How the results depend on the processing

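The count of 8 genes with a TSS summit in the IDR list stayed at 8 when 500 or 1000 bp from a TSS was allowed in place of 250 bp, but fell to 1 with 100 bp. It was 8 with the strongest peaks of either replicate alone, but the genes were not the same. In replicate 1 Gapdh1 (rank 5382) took the place of Tpi (rank 6751). In replicate 3 Pfk (rank 6298) took the place of Ald1 (rank 7044). The count of 9 with a summit in the gene or within 1 kb fell to 3 in the gene body alone. It was 9 with either replicate alone, but in replicate 1 the gene left out was Tpi and not Gapdh1. Of 18 alternatives for counts, 16 stayed within 1.5 times the main count. Matching within 50 bp left 17 of the 18 summits matched in both replicates. With 100 bp on each side of the summit, the inner DRE letters were found at 1 gene and GAGAGA at 2. No paired analysis was possible because there is 1 group. With 2 replicates of unknown depth, differences in rank among Ald1, Pfk, Tpi and Gapdh1 could not be resolved, and a peak between divergent genes could not be given to either.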
